A study of Mus musculus with 8 samples.

Results

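Heat shock proteins and DnaJ proteins are the chaperones and co-chaperones that fold new and damaged proteins. All gene symbols beginning with Hspa, Hspb or Hsp90 and a number, with Dnaja, Dnajb or Dnajc and a number, and the symbols Hspd1, Hspe1 and Hsph1 were taken from the RNA-seq and Ribo-seq values. This gave 72 genes, all among the 24079 symbols held by both assays. They are called chaperones here by symbol alone, and whether each protein acts as one was not checked. They comprised 13 Hspa, 8 Hspb and 3 Hsp90 genes, 4 Dnaja, 13 Dnajb and 28 Dnajc genes, and Hspd1, Hspe1 and Hsph1. By the textbook location of their proteins 13 were put in the endoplasmic reticulum (ER), 44 in the cytosol or nucleus and 10 in the mitochondrion, and 5 were left unassigned.

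Hsp70 proteins (Hspa genes) bind exposed stretches of a client protein and release them in a cycle driven by ATP. DnaJ proteins bring clients and start ATP hydrolysis, and nucleotide exchange factors end the cycle. Hsp90 proteins finish the folding of kinases and receptors, small heat shock proteins (Hspb genes) hold unfolded clients, and Hspd1 with its lid Hspe1 forms a folding chamber in the mitochondrial matrix. In liver, ER chaperones serve the folding of secreted plasma proteins, and mitochondrial chaperones serve enzymes imported into the matrix.

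Livers came from male C57BL/6 mice, all fed a high-fat diet in which fat supplied 45% of the energy. Mice of the M group drank plain water, and betaine, a methyl donor, was added to the water of the B group at 2% (w/v). The diet began at week 8 and livers were taken at week 25, an interval of 17 weeks, while a treatment label gives 25 weeks of feeding. Each group had 2 RNA-seq libraries and 2 Ribo-seq libraries, called M1, M2, B1 and B2 in each assay. The labels describe pooled total RNA where the methods describe single mice, so libraries and not mice are counted, and p-values measure the spread between libraries. Mice on a standard diet were not analysed here. RNA-seq gives the abundance of mRNA, and Ribo-seq gives ribosome-protected fragments (RPFs), the pieces of mRNA covered by a ribosome. Values were RPKM, reads scaled by the length of the gene and by the size of the library so that genes can be set side by side, and translation efficiency (TE) was the RPF RPKM divided by the mRNA RPKM.

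Library totals estimated from the steps between low RPKM values were 11661207 to 22543471 reads in RNA-seq, but 141890 to 1056546 reads in Ribo-seq, with both B libraries below both M libraries. The 72 chaperones together held 2925 and 7099 RPF reads in M1 and M2 and 1820 and 959 in B1 and B2. On a gene of 1 kb, 3 RPF reads were worth an RPKM of 7.73 and 2.84 in M1 and M2 and of 11.7 and 21.1 in B1 and B2, so RPF values below that level could not be told from a handful of reads. All 8 hepatocyte markers had a mean of at least 1 RPKM in both assays, and their summed mRNA was 41454 and 42016 RPKM in M1 and M2 and 46074 and 44282 RPKM in B1 and B2. The 6 red cell and muscle markers summed to 251 and 210 RPKM in M1 and M2 and to 395 and 1005 RPKM in B1 and B2, with Ckm and Myh4 at 0. The 6 stellate cell markers summed to 33.8 and 33.0 RPKM in M1 and M2 and to 70.8 and 42.4 RPKM in B1 and B2, of which Dcn made up 21.9, 22.4, 57.8 and 30.6 RPKM. Their RPF sums were 142 and 116 RPKM in M1 and M2 and 97.0 and 88.5 RPKM in B1 and B2. The 5 lymphocyte markers summed to 5.86 and 8.66 RPKM of mRNA in M1 and M2 and to 3.18 and 2.87 RPKM in B1 and B2. The 5 bile duct markers summed to 26.2 and 31.9 RPKM in M1 and M2 and to 15.7 and 26.0 RPKM in B1 and B2. Sums for macrophage (102 to 128 RPKM) and endothelial markers (55.9 to 67.6 RPKM) overlapped between the groups, with Clec4g (30.8 to 47.6 RPKM) the highest of the endothelial markers. The part of these cells in the chaperone values was not tested, and in bulk liver fewer cells of a type and less RNA per cell cannot be told apart.

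Of the 72 genes, 64 had an mRNA RPKM above 0 in all 4 libraries and 42 had RPFs in all 4. No mRNA was listed for Dnajb8, Dnajc5b, Dnajc5g, Dnajc6 and Hspb3 in any library. A mean RPKM of at least 1 was reached by 59 genes in mRNA and 53 in RPF, and these entered the tests. The 53 genes rested on a median of 73 RPF reads over the 4 libraries, and 22 of them had at least 100.

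Cytosolic chaperones made up most of the chaperone mRNA. The constitutive Hsp70 gene Hspa8 was the most abundant member in both assays, with mRNA of 1168 and 897 RPKM in M1 and M2 and 857 and 862 RPKM in B1 and B2. Its RPF levels were 535 and 542 RPKM in M1 and M2 and 505 and 586 RPKM in B1 and B2. Both B libraries lay below both M libraries in mRNA, and the RPF values overlapped. Hsp90ab1, the constitutive cytosolic Hsp90, was second in mRNA with 258 RPKM in M1 and M2, 419 RPKM in B1 and 445 RPKM in B2. The ER chaperones Hsp90b1 (GRP94) and Hspa5 (BiP) and the mitochondrial co-chaperonin Hspe1 completed the 5 highest mRNA levels. In RPF, Hspd1 took the place of Hspe1 among the 5 highest. The plot of levels by library shows this order.

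**Figure D1:**
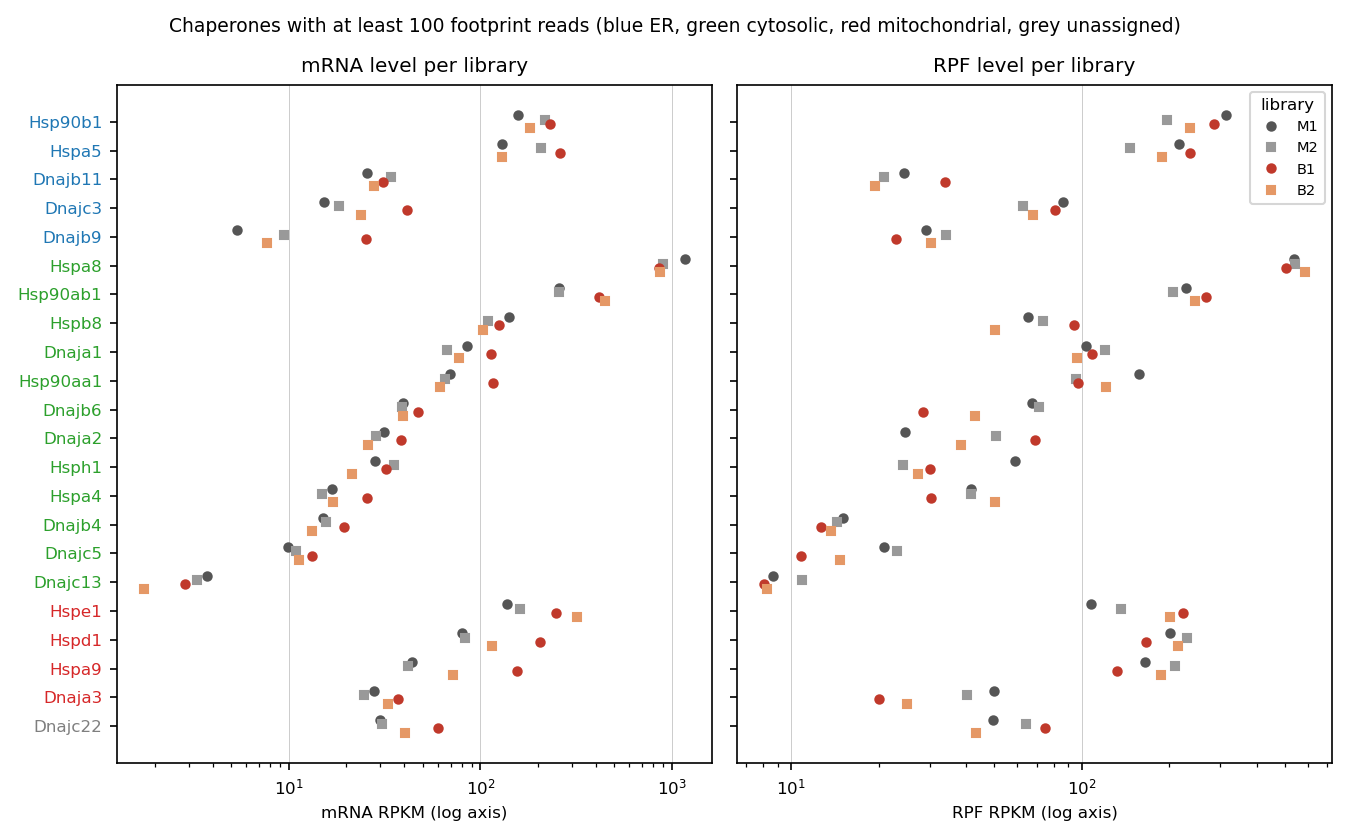
mRNA RPKM (left) and RPF RPKM (right), both on log axes, of the 22 chaperones with at least 100 RPF reads, 1 symbol per library and 1 row per gene, ordered by mRNA level within each compartment. Hspa8 is highest in both panels, and the mitochondrial genes Hspe1, Hspd1 and Hspa9 have both B libraries to the right of both M libraries in mRNA, while in RPF only Hspe1 does.

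The comparison of the B with the M group asked which chaperone mRNAs differed with betaine on the high-fat diet. By limma on log2(RPKM + 1), with a log2 fold change beyond 1 and a Benjamini-Hochberg adjusted p under 0.05 over 10687 genes, 6 of the 59 tested chaperones rose in the B group and 2 fell. The same rule called 5.01% of all tested genes higher and 12.7% lower, against 10.2% and 3.39% of the chaperones. Those that rose were the inducible Hsp70 genes Hspa1b and Hspa1a, the mitochondrial Hsp70 Hspa9, the ER membrane co-chaperone Dnajb12, and Dnajc12 and Dnajc24. Those that fell were Dnajb5, a cytosolic Hsp40, and Hspa12b, a distant Hsp70 relative of endothelial cells. Hspa12b reached the mean RPKM needed for the test only through its M libraries. Under the thresholds of the study, which ask for an unadjusted p under 0.001 at the same fold, 1 chaperone (Hspa1b) was called higher, beside 2.30% of all genes, and 1 (Dnajb5) lower, beside 6.56%. No chaperone was called when genes of any level entered the fit, where no gene at all passed the adjusted p. The calls also rested on single libraries. Without M1, 2 chaperones passed the adjusted rule as higher and 1 as lower, beside 2.91% and 8.87% of all genes, and without M2 8 and 2 did, beside 4.65% and 12.5%. Without B1 the counts were 4 and 1, beside 4.25% and 10.5% of all genes, and without B2 9 and 2, beside 7.81% and 15.6%.

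Both B values lay above both M values for 24 of the 59 chaperones, beside 24.8% of all tested genes. Both B values lay below both M values for 9 chaperones, beside 43.3% of all genes. The median log2 fold change was 0.19 over the 59 chaperones (42 positive and 17 negative) and -0.19 over all tested genes. By compartment the median was 0.17 in the ER (11 of 13 positive), 0.17 in the cytosol (20 of 32 positive) and 0.37 in mitochondria (8 of 10 positive). With all libraries set to 1 common median, the median of all genes moved from -0.19 to 0.08, and those of the 3 compartments to 0.45, 0.45 and 0.64. Relative to all genes the chaperone medians were thus higher under both scalings, but the size of the difference depended on the genes compared. When the filter was raised to 5 RPKM, all genes had a median of -0.11, and the ER, cytosol and mitochondria had 0.16, 0.13 and 0.40. Among members and genes holding 100 or more RPF reads, the median was 0.10 over all genes. There it was 0.17 in the ER, 0.11 in the cytosol and 0.91 in mitochondria. The ER and cytosolic medians were then close to that of all genes. No test was made of these differences.

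Among the cytosolic Hsp70 genes, Hspa1b, which is induced by heat and other protein stress, had mRNA of 8.33 and 18.2 RPKM in M1 and M2 and 44.0 and 39.9 RPKM in B1 and B2. The groups did not overlap, and M1 was below M2. The log2 fold change was 1.68 (SE 0.34, limma adjusted p = 0.00928), and the ratio of the group means was 3.16. Without M1 the adjusted p was 0.0609. Hspa1a, whose coding sequence is nearly identical, had 0.889 and 2.42 RPKM in M1 and M2 and 3.76 and 5.20 RPKM in B1 and B2, with a log2 fold change of 1.10 (limma adjusted p = 0.0316). Its groups did not overlap, and the call was lost without M1 (0.306) and without B2 (adjusted p = 0.0794). The genes lie side by side, Hspa1b at chr17:34956436-34959238 and Hspa1a at chr17:34969190-34972156, both on the minus strand of GRCm38. Reads that fit either copy could be split between them in a way the sources do not describe, so the share of each gene is uncertain. The third gene of this cluster, the Hsp70 relative Hspa1l, chosen after its values were seen, had 2.13 and 2.87 RPKM in M1 and M2 and 0.918 and 1.21 RPKM in B1 and B2. Its log2 fold change of -0.76 (limma adjusted p = 0.0453) went the other way and missed the fold threshold.

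The other abundant cytosolic chaperones did not pass the test. Hsp90ab1 had a log2 fold change of 0.74 (limma adjusted p = 0.0603) with no overlap between the groups. Hsp90aa1, the inducible cytosolic Hsp90, had 69.7 and 65.3 RPKM in M1 and M2, 116 RPKM in B1 and 61.5 RPKM in B2, and overlapped. Hspa8 had a log2 fold change of -0.25, which was 0.02 when libraries were shifted to a common median. Hspa4 and Hsph1, nucleotide exchange factors of the Hsp110 family, had values of 0.39 and -0.26. Of the class A and B J proteins that work with Hspa8, Dnaja1 had 0.31, Dnaja2 0.08 and Dnajb1 0.50, each with an adjusted p above 0.05. Among small heat shock proteins, Hspb1 had 119, 71.2 and 102 RPKM in M1, M2 and B1 and 254 RPKM in B2. The mRNA sum of the red cell and muscle markers was also highest in B2. Their RPF sum was lowest there, with 513, 328, 1163 and 165 RPKM in M1, M2, B1 and B2. Hspb8, a partner of Bag3 in selective autophagy, had 104 to 141 RPKM in all libraries and a log2 fold change of -0.12.

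Of the 18 cytosolic J proteins tested, 2 rose and 1 fell, beside 5.01% and 12.7% of all genes. Dnajb5 had mRNA of 8.91 and 6.67 RPKM in M1 and M2 and 1.61 and 2.63 RPKM in B1 and B2. The groups were far apart, with a log2 fold change of -1.50 (SE 0.28, limma adjusted p = 0.00731) and a level 3.67 times as high in the M group. It was the only member that passed the adjusted rule with each of the 4 libraries left out in turn (adjusted p of 0.00101 to 0.0159). Each such fit leaves 1 group with a single library, which is assumed to vary like the libraries of the other group. Dnajc24, an iron-binding J protein of the diphthamide pathway that modifies elongation factor 2, had 1.38 and 1.20 RPKM in M1 and M2 and 5.32 and 3.13 RPKM in B1 and B2. Its log2 fold change was 1.16 (limma adjusted p = 0.0153), and without B1 it was 0.85, under the fold threshold. Dnajc12, a co-chaperone of the aromatic amino acid hydroxylases, among them the liver's phenylalanine hydroxylase, had 1.79 and 2.42 RPKM in M1 and M2 and 6.74 and 4.46 RPKM in B1 and B2. Its log2 fold change was 1.07 (limma adjusted p = 0.0197). It fell under the fold threshold without M1 (0.93) and without B1 (0.82). Both rose from low levels in the M group, and both B libraries were above both M libraries. Dnajc7, a J protein with tetratricopeptide repeats that binds both Hsp70 and Hsp90, had 30.9 and 30.2 RPKM in M1 and M2 and 18.4 and 19.9 RPKM in B1 and B2. The groups did not overlap, but the log2 fold change of -0.65 (limma adjusted p = 0.0726) did not pass. The unassigned Hspa12b, chosen after its values were seen, had 2.54 and 1.29 RPKM in M1 and M2 and 0.271 and 0.470 RPKM in B1 and B2. It entered the test, which asks for a mean of 1 RPKM, only through its M values. Its log2 fold change was -1.06 (limma adjusted p = 0.0194), which did not pass without M1 (0.0627), without B1 (0.0636) or after a shift to a common median (adjusted p = 0.0569). Of the 6 endothelial markers, 4 (Stab2, Pecam1, Cdh5 and Lyve1) also had both B mRNA values below both M values, beside 43.3% of all tested genes. Stab2 had 9.76 and 10.4 RPKM in M1 and M2 and 4.00 and 6.02 RPKM in B1 and B2. Clec4g, the highest of the list, had 30.8 and 43.3 RPKM in M1 and M2 and 39.4 and 47.6 RPKM in B1 and B2. Clec4g and Kdr overlapped between the groups. The part of endothelial cells in the Hspa12b values was not tested.

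**Figure D2:**
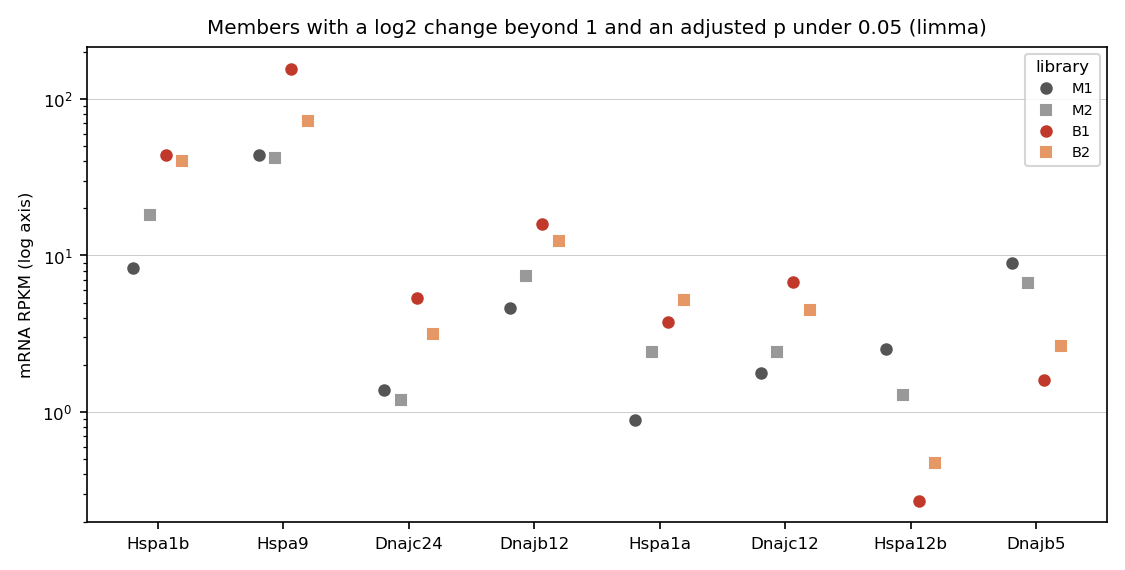
mRNA RPKM on a log axis for the 8 chaperones with a log2 fold change beyond 1 and an adjusted p under 0.05, 1 symbol per library. For the 6 genes on the left both B libraries lie above both M libraries, and for Hspa12b and Dnajb5 both lie below.

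Mitochondrial chaperones include the matrix Hsp70 Hspa9, its J proteins, and the chaperonin pair Hspd1 and Hspe1. Hspa9 mRNA was 43.8 and 42.1 RPKM in M1 and M2, 156 RPKM in B1 and 71.8 RPKM in B2. Both B libraries were above both M libraries and B1 stood apart, with a log2 fold change of 1.28 (SE 0.35, limma adjusted p = 0.0257). The log2 fold change was 1.84 without B2, but 0.73 without B1, which is under the fold threshold. Hspd1 (Hsp60) had 79.8 and 83.1 RPKM in M1 and M2, 206 RPKM in B1 and 115 RPKM in B2. Hspe1 (Hsp10) had 138 and 162 RPKM in M1 and M2 and 249 and 319 RPKM in B1 and B2. For neither gene did the groups overlap, and the log2 fold change was 0.91 for both, with a limma adjusted p of 0.0555 for Hspd1 and 0.0350 for Hspe1, so that both stayed under the fold threshold. Of the mitochondrial J proteins, Dnaja3, which works with Hspa9 in the matrix, had a log2 fold change of 0.40, Dnajc15 and Dnajc19 of the import motor had 0.52 and 0.18, and none of them passed.

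Hspd1 and Hspe1 lie head to head on chromosome 1. Hspd1 is on the minus strand at chr1:55077835-55088243 and Hspe1 on the plus strand at chr1:55088132-55091307 (GRCm38). The windows from 250 bases before to 50 after the RefSeq start (GRCm38.p6), held for 58 of the 72 genes, were searched on both strands for the heat shock element, the blocks GAA, TTC and GAA with NN between neighbours, which heat shock factors bind. It was found in 4 of the 58 genes (6.9%: Hspd1, Hspe1, Hsph1 and Dnajb6) and in 0.662% of the 27025 genes with such a window. The windows below are read on the strand of each gene, with the element or its reverse complement in capitals. They are shown because the Hspd1 and Hspe1 lines overlap on opposite strands, upstream of both RefSeq starts and within the GENCODE span of Hspd1. In mRNA B1 was the higher B library for Hspd1 and B2 for Hspe1. Each of the 2 genes held another match, overlapping the one shown.
Hspd1, chr1:55088050-55088079: gccttccgGAAGGTTCTAGAAcggaccgtg
Hspe1, chr1:55088051-55088080: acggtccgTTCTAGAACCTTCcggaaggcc
Dnajb6, chr5:29735844-29735873: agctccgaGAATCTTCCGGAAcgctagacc
In the fourth gene, Hsph1, the match lay after the start of transcription. The mRNA of Dnajb6, an antiaggregation J protein chosen for its sequence and after its values were seen, was 39.4 and 39.2 RPKM in M1 and M2 and 47.2 and 39.4 RPKM in B1 and B2, a difference of 0.13 on the log2 scale. A match of letters is a description of the sequence and not a measured binding site.

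ER chaperones were led by Hsp90b1 and Hspa5, and neither differed beyond the spread of its libraries. Hspa5 mRNA was 129 and 207 RPKM in M1 and M2 and 261 and 130 RPKM in B1 and B2, so the groups overlapped, with B1 the highest. The log2 fold change was 0.17 (SE 0.37, limma adjusted p = 0.755). Hsp90b1 had 157 and 218 RPKM in M1 and M2 and 231 and 182 RPKM in B1 and B2, with a log2 fold change of 0.15. Dnajb11, the soluble ER J protein, had -0.01. Dnajc3 (P58IPK), a co-chaperone of Hspa5, had 15.2 and 18.2 RPKM in M1 and M2, 41.6 RPKM in B1 and 23.8 RPKM in B2, with no overlap and a log2 fold change of 0.88 (limma adjusted p = 0.0562). Dnajb9 (ERdj4), which feeds misfolded proteins to ER degradation, had 5.38 and 9.43 RPKM in M1 and M2, 25.2 RPKM in B1 and 7.65 RPKM in B2. Only B1 was high for Dnajb9, and its adjusted p was 0.181. Dnajc10, a disulfide reductase of the ER, had 0.17, and the Hsp70 relative Hspa13 had 0.65. Dnajb12, chosen after its values were seen, had 4.59 and 7.44 RPKM in M1 and M2 and 15.9 and 12.4 RPKM in B1 and B2. It was the ER member that rose, with a log2 fold change of 1.13 (limma adjusted p = 0.0195, and 0.214 without M1), and without B1 its log2 fold change of 0.97 missed the fold threshold.

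Library B1 was the highest of the 4 mRNA libraries for 10 of the 13 ER chaperones, for 14 of 32 cytosolic and for 4 of 10 mitochondrial chaperones, beside 28.34% of all tested genes. Without B1 the median log2 fold change of the ER members was 0.02, and that of the cytosolic members was -0.01. The ER medians without B2, M1 and M2 were 0.39, 0.12 and 0.36.

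The promoter windows of ER chaperones held the ER stress element, CCAAT and CCACG with 9 bases between them, which is read by ATF6 and the factor NF-Y. It was found on either strand in 3 of the 58 chaperones (5.17%), all of the ER (Hspa5, Hsp90b1 and Dnajc3), and in 0.137% of all genes with a window. The windows are given on the strand of each gene, with the element or its reverse complement in capitals, because Hspa5 and Hsp90b1 are the leading ER members.
Hspa5, chr2:34772020-34772049: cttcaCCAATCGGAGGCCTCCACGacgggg
Dnajc3, chr14:118937822-118937851: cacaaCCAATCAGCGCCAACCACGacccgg
Hsp90b1, chr10:86705527-86705556: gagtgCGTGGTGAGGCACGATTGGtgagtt
Hsp90b1, chr10:86705632-86705661: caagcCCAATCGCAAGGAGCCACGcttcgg
The second element of this kind, ATTGG and CCACG with N between them, was found in 1 chaperone (Dnajb11, after the start of transcription), which is 1.72% of the 58, and in 0.0444% of all genes.

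Partners of the chaperones were taken from 4 lists, and differed among themselves. Of 19 cytosolic co-chaperones and heat shock factors, the adjusted rule called 1 higher and 4 lower in the B group, beside 5.01% and 12.7% of all genes, shares that also stand beside the counts of the other lists. Heat shock factor 1 (Hsf1), the main activator of heat shock genes, had mRNA of 29.1 and 26.7 RPKM in M1 and M2 and 7.13 and 11.3 RPKM in B1 and B2. It fell with a log2 fold change of -1.53 (limma adjusted p = 0.00692). Hsf2 fell as well, by 1.19 on the log2 scale (limma adjusted p = 0.00985). Both heat shock factors had B values far below the M values. The Hsp90 cofactor Cdc37 rose (log2 fold change of 1.07, limma adjusted p = 0.0132), whereas the myosin chaperone Unc45a fell by 1.31. Fkbp5, a glucocorticoid-induced cofactor of Hsp90, fell by 1.85 (SE 0.49). It had 109 and 43.9 RPKM in M1 and M2 and 11.1 and 30.3 RPKM in B1 and B2, a wide spread within each group.

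Of 20 ER folding and stress genes, 2 rose and 2 fell by the adjusted rule. The disulfide isomerase Pdia6 had 50.4 and 76.9 RPKM in M1 and M2 and 169 and 150 RPKM in B1 and B2, with a log2 fold change of 1.34 (limma adjusted p = 0.0107). The ER stress sensor Ern1 (IRE1) rose by 1.53 on the log2 scale, from 1.12 and 1.11 RPKM in M1 and M2 to 6.37 and 4.03 RPKM in B1 and B2. The stress-induced factor Ddit3 (CHOP) fell by 1.22 and the ER protein Creld2 by 1.02. The other 16 genes of this list did not pass. Of 10 mitochondrial partners, 1 rose and none fell. It was Grpel1, the nucleotide exchange factor of Hspa9, with 12.2 and 14.4 RPKM in M1 and M2 and 45.4 and 43.4 RPKM in B1 and B2, and a log2 fold change of 1.67 (limma adjusted p = 0.00525). Of 14 genes of the cytosolic chaperonin CCT and its partner prefoldin, Cct5 rose (1.17) and the prefoldin subunits Pfdn2 and Pfdn6 fell by 1.05 and 1.04. The medians of the 4 lists were -0.19, 0.33, 0.42 and 0.12, beside -0.19 for all tested genes.

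Ribosome footprints of the chaperones differed less clearly. By limma no chaperone and no gene at all had an adjusted p under 0.05 (0 of 53 chaperones, beside 0% of 11190 genes), and the smallest adjusted p among the chaperones was 0.493. At an unadjusted p under 0.05, 8 of the 53 chaperones and 1122 of all genes differed by any fold. With voom on the recovered reads 82 genes had an adjusted p under 0.05, and the smallest among the chaperones was 0.369. Without M1 the adjusted rule called 1 chaperone lower, the unassigned Hspb11, beside 5.8% of all genes. It rested on 4 reads in M2 and none in B1 and B2. The study asked of RPFs the same fold at an unadjusted p under 0.05, and by this rule 2 chaperones (Dnajc7 and Dnajc24) were called higher in the B group, beside 1.58% of all genes, and 3 (Hspa14, Dnajc19 and Dnajb2) lower, beside 7.86%. All 5 had an adjusted p of 0.493, and the values below describe them without calling a change.

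Dnajc7 had RPFs of 7.80 and 9.01 RPKM in M1 and M2 and 21.9 and 18.3 RPKM in B1 and B2. These values came from 7, 22, 13 and 6 reads, and the groups did not overlap. The log2 fold change was 1.16, and the ratio of the pooled read rates was 2.37 with a 95% interval of 1.26 to 4.38 (exact, from the binomial split of the reads, covering counting error only). Its mRNA had a log2 fold change of the opposite sign, -0.65. Dnajc24 had 7.30 and 4.47 RPKM in M1 and M2 and 29.4 and 13.3 RPKM in B1 and B2, from 3, 5, 8 and 2 reads. Its pooled rate ratio was 4.53 with an interval of 1.61 to 13.2, and mRNA and RPF both had higher values in both B libraries.

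Hspa14, a ribosome-associated Hsp70 relative, had RPFs of 13.6 and 15.0 RPKM in M1 and M2, 4.55 RPKM in B1 and 0 in B2. This rested on 36 reads in M1 and M2 and 2 reads in B1 and B2, a rate 4.97 times as high in the M group with an interval of 1.28 to 42.6. Dnajc19, a J protein of the mitochondrial import motor, had 8.27 and 9.62 RPKM in M1 and M2, 2.08 RPKM in B1 and 0 in B2. It rested on 25 reads in M1 and M2 and 1 read in B1 and B2, a rate 6.90 times as high in the M group with an interval of 1.13 to 284. Both genes had B values at the level of a few reads, and with a pseudocount of 0.1 neither passed (p by limma of 0.102 for Hspa14 and 0.0768 for Dnajc19), while Dnaja3 did. Dnajb2, a J protein with ubiquitin-binding motifs, had 25.5 and 16.3 RPKM in M1 and M2 and 8.10 and 7.34 RPKM in B1 and B2, with a log2 fold change of -1.30. The groups did not overlap, while its mRNA was 39.7 and 39.0 RPKM in M1 and M2 and 49.3 and 56.2 RPKM in B1 and B2. Its RPF values came from 19, 33, 4 and 2 reads in M1, M2, B1 and B2. The rate was 2.39 times as high in the M group, with an interval of 1.03 to 6.82. Dnajb2 was not called at a common median, with the replicate number as a block, or with voom.

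These calls depended on single libraries. Without M2 none of the 53 chaperones was called in RPF, beside 1.15% of all genes higher and 7.07% lower, and without M1 1 was called higher and 1 lower, beside 0.509% and 6.45% of all genes. Without B1 0 were called higher and 7 lower, beside 3.6% and 23.3% of all genes, and without B2 2 and 6, beside 4.68% and 14.2%. With RPKM rescaled to a common sum, none was called higher and 12 lower, beside 23.8% of all genes lower, as the median of all genes moved from -0.43 to -1.16. When libraries were shifted to a common median it moved to -0.10. Both B values lay above both M values for 7 of the 53 chaperones, beside 9.07% of all genes, and below both for 14, beside 33.2%.

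Among the chaperones with at least 100 RPF reads, the RPF levels of Hspa5 were 216 and 147 RPKM in M1 and M2 and 236 and 189 RPKM in B1 and B2. Hsp90b1 had 314 and 196 RPKM in M1 and M2 and 285 and 235 RPKM in B1 and B2. In both the library pairs overlapped, and the log2 fold changes were 0.25 and 0.06. Hspd1 had 201 and 229 RPKM in M1 and M2 and 166 and 214 RPKM in B1 and B2. Hspa9 had 165 and 210 RPKM in M1 and M2 and 132 and 188 RPKM in B1 and B2. Neither showed the higher B values of its mRNA, with log2 RPF fold changes of -0.19 (SE 0.28) and -0.24 (SE 0.31). Hspe1 had RPFs of 107 and 137 RPKM in M1 and M2, 223 RPKM in B1 and 202 RPKM in B2. Its groups did not overlap, and the log2 fold change was 0.80 (limma adjusted p = 0.493). Dnaja3 had 49.9 and 40.4 RPKM in M1 and M2 and 20.0 and 25.1 RPKM in B1 and B2, and Dnajb6 had 67.5 and 71.5 RPKM in M1 and M2 and 28.4 and 42.9 RPKM in B1 and B2. For both genes the B values lay below the M values, with a log2 fold change of -0.97 each and mRNA that was not lower.

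The median RPF log2 fold change was -0.11 in the ER, -0.15 in the cytosol and -0.53 in mitochondria, beside -0.43 over all tested genes. The ER value was -0.41 to 0.14 with 1 library left out. At a common median the 3 values were 0.22, 0.18 and -0.20, so the direction of the ER and cytosolic medians depends on the scaling. Of the pathway genes, the RPF values of Hsf1 were 5.46 and 3.21 RPKM in M1 and M2 (13 reads) and were listed at 0 in both B libraries. Set against 3 reads over the B group, the limit a count of 0 allows, the M rate was 1.20 times as high. That value leaves out the counting error of the 13 M reads, so no change is not excluded. The cochaperone Bag3 had 19.9 and 8.40 RPKM in M1 and M2 and 36.0 and 35.3 RPKM in B1 and B2, and the exchange factor Grpel2 had 25.5 and 13.6 RPKM in M1 and M2 and 5.77 and 6.97 RPKM in B1 and B2. Both had groups that did not overlap, with an adjusted p of 0.493. Pfdn6 also passed the thresholds of the study as higher in RPF, on 6 reads in all, and Ddit3 as lower, with no read in B1 and B2 and too few in the M group for a fold. Grpel1, whose mRNA rose, had RPFs of 32.4 and 38.8 RPKM in M1 and M2 and 37.3 and 33.8 RPKM in B1 and B2, and these overlapped.

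**Figure D3:**
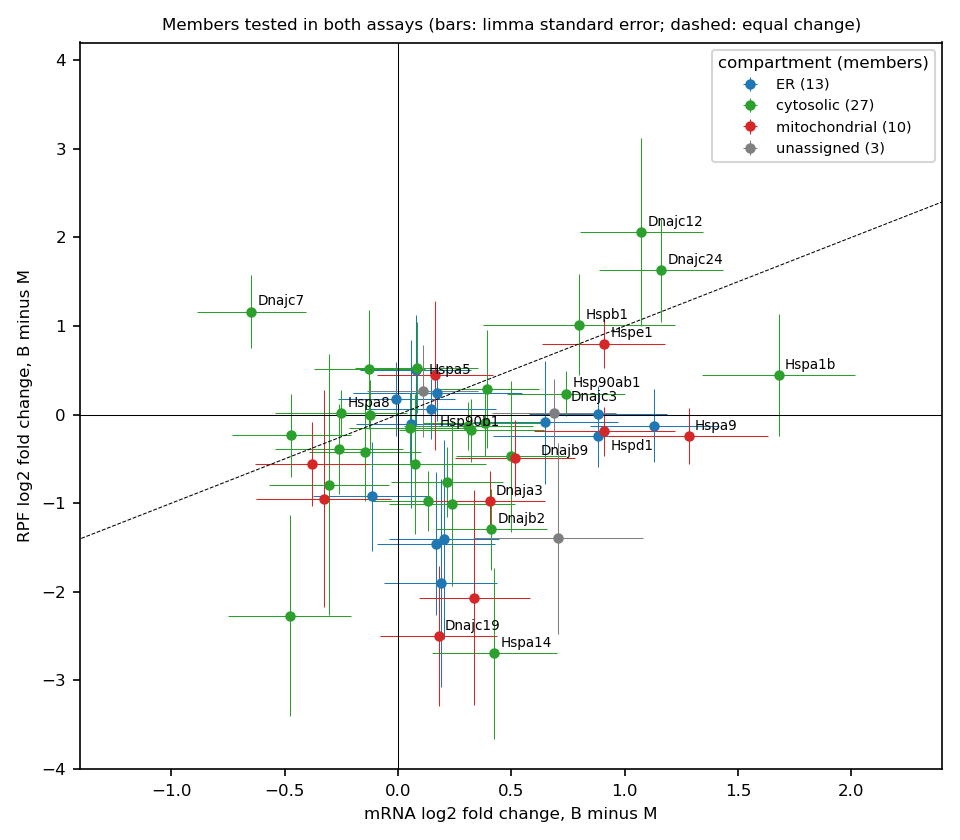
Log2 fold changes (B minus M) of mRNA (horizontal) and RPF (vertical) for the 53 chaperones tested in both assays, coloured by compartment, with limma standard errors as bars and a dashed line of equal change. Hspa9 and Hspd1 lie at mRNA values of 1.28 and 0.91 and RPF values of -0.24 and -0.19, while Hspe1 lies near the line at 0.91 and 0.80.

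Translation efficiency put footprints and mRNA together. By limma no chaperone passed an adjusted p of 0.05 (0 of 53, beside 0% of 9455 genes), the smallest being 0.334, and 3 chaperones had an unadjusted p under 0.05 (Hspa14, Dnajc7 and Dnaja3), beside 1154 of all genes. An interaction model over both assays also called no chaperone by adjusted p. Without B1, 7 chaperones passed the adjusted p and the fold as lower, beside 11.6% of all genes, and without B2 5 did, beside 6.28%. At the thresholds of the study (log2 fold change beyond 2, unadjusted p under 0.05) 1 chaperone, Hspa14, was called lower, beside 4.60% of all genes, and 0 were called higher, beside 1.49%. The TE of Hspa14 was 2.38 in M1, 2.85 in M2 and 0.476 in B1, and was listed at 0 in B2, on the reads given above. By the thresholds of the study no chaperone was lower in TE without M2, beside 1.89% of all genes. Without B1 9 were (13.4% of all genes), without B2 5 (7.65%), and under a common sum 10 (14.1%).

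Both B values of TE lay below both M values for 20 of the 53 chaperones, beside 31.7% of all genes. By compartment these were 6 of 13 ER, 6 of 27 cytosolic and 6 of 10 mitochondrial members, and 2 unassigned ones. Both lay above for 3 chaperones, beside 14.0%. The median log2 fold change of TE was -0.81 in the ER, -0.43 in the cytosol and -1.05 in mitochondria, beside -0.35 over all genes. Under a common median all 3 stayed negative, while that of all genes was -0.28.

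Hspa9 had a TE of 3.78 and 4.98 in M1 and M2 and of 0.844 and 2.61 in B1 and B2. Hspd1 had 2.52 and 2.76 in M1 and M2 and 0.807 and 1.86 in B1 and B2. In both, B1 was lowest, the groups did not overlap, and the log2 fold changes were -1.53 (limma adjusted p = 0.423) and -1.10 (limma adjusted p = 0.488). Dnaja3 had 1.79 and 1.63 in M1 and M2 and 0.535 and 0.759 in B1 and B2. The TE of Hspe1 was 0.778, 0.845, 0.895 and 0.634 in M1, M2, B1 and B2, and thus overlapped. Over the 4 mitochondrial chaperones with at least 100 RPF reads (Dnaja3, Hspa9, Hspd1 and Hspe1) the median log2 fold change was 0.91 in mRNA, -0.21 in RPF and -1.24 in TE. The same medians were 0.17, 0.06 and -0.09 for 5 ER chaperones, and 0.11, -0.14 and -0.32 for 12 cytosolic ones. All 2899 genes with at least 100 reads had 0.10, -0.35 and -0.44. The difference between compartments was not tested.

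Among cytosolic and ER members, Hspa8 had low TE, from 0.458 in M1 to 0.680 in B2, and Hspa4 had high TE in 3 libraries (2.49, 2.79 and 2.95) with 1.18 in B1. Dnajc7 was a member with higher TE in both B libraries, with 0.253 and 0.298 in M1 and M2 and 1.19 and 0.918 in B1 and B2, and a log2 fold change of 1.81 (limma adjusted p = 0.378). Dnajc3 had TE of 5.68 and 3.44 in M1 and M2 and 1.95 and 2.85 in B1 and B2, and Dnajb9 had 5.39, 3.60, 0.909 and 3.95 in M1, M2, B1 and B2. Dnajc3 did not overlap between the groups and Dnajb9 did. In Hspa5, with 1.67, 0.708, 0.904 and 1.45 in M1, M2, B1 and B2, the groups overlapped as well.

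The level of TE was also set side by side between compartments, without a test. In the M group the median TE of the 13 ER chaperones was 4.86 in M1 and 2.80 in M2, against 0.997 and 1.02 for 27 cytosolic and 0.999 and 0.720 for 10 mitochondrial members. In the B group the ER medians were 1.52 and 1.29, the cytosolic ones 0.790 and 0.933 and the mitochondrial ones 0.539 and 0.544. All tested genes had 1.07, 1.02, 0.877 and 0.739. The ER median was the highest of the 3 in each of the 4 libraries, but among members with at least 100 RPF reads only in B1 and B2. There it was 2.00, 0.899, 1.09 and 1.45 in M1, M2, B1 and B2, against 1.46, 1.62, 0.826 and 1.26 for the cytosolic and 2.16, 2.19, 0.825 and 1.31 for the mitochondrial members.

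Mitochondrial chaperone mRNA summed to 422 and 446 RPKM in M1 and M2 and to 776 and 699 RPKM in B1 and B2, while RPFs summed to 607 and 669 RPKM in M1 and M2 and to 589 and 662 RPKM in B1 and B2. The mRNA sums did not overlap and the RPF sums did, in RPKM that were not rescaled. As shares of a library's RPF RPKM, mitochondrial RPFs were 0.0558% and 0.0533% in M1 and M2. In B1 and B2 they were 0.0339% and 0.0250%, below both M values. The share of all 72 chaperones was 0.271% and 0.214% in M1 and M2 and 0.166% and 0.103% in B1 and B2. The ratio of the mitochondrial sums was 1.44 and 1.50 in M1 and M2 and 0.760 and 0.947 in B1 and B2. ER mRNA summed to 359, 519, 636 and 406 RPKM and ER RPFs to 762, 531, 738 and 585 RPKM in M1, M2, B1 and B2, and both overlapped. Cytosolic sums were 1801 to 2171 RPKM in mRNA and 1411 to 1522 RPKM in RPF, with a ratio of 0.701 and 0.783 in M1 and M2 and 0.691 and 0.664 in B1 and B2. With 2 libraries against 2, an exact two-sided permutation test of such a sum cannot give a p below 0.333.

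**Figure D4:**
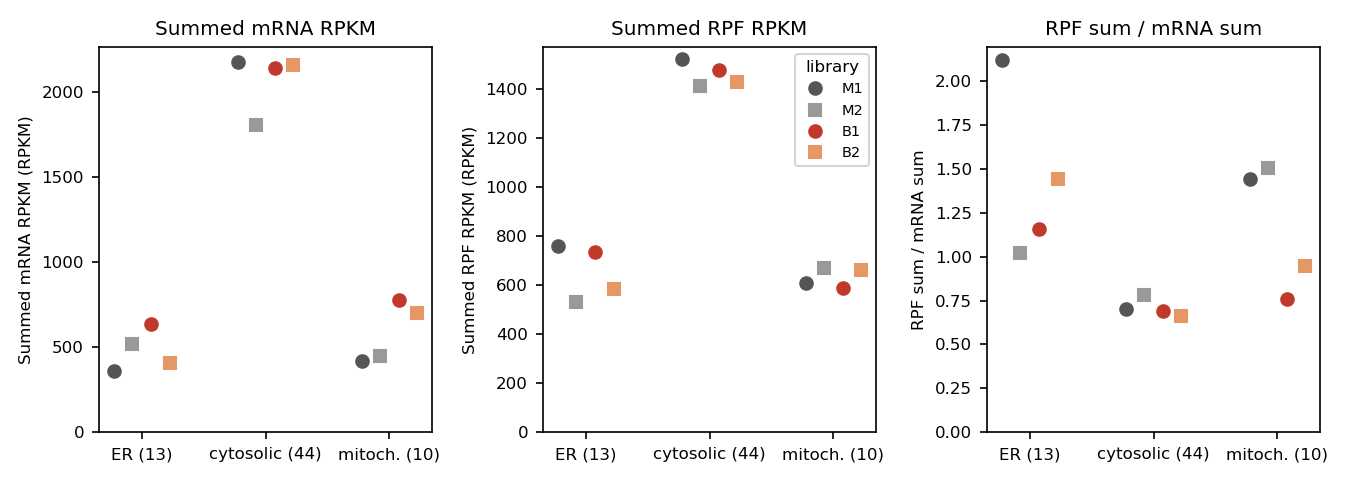
Summed mRNA RPKM (left), summed RPF RPKM (middle) and their ratio (right) for the ER, cytosolic and mitochondrial chaperones, 1 symbol per library, with axes starting at 0. The mitochondrial sums of B1 and B2 (776 and 699 RPKM) lie above those of M1 and M2 (422 and 446 RPKM) in mRNA but not in RPF, and the mitochondrial ratio is below 1 in both B libraries. The sums are not rescaled. As shares of a library's RPF RPKM, the mitochondrial values of B1 and B2 are below those of M1 and M2.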

How the data were processed

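Liver RNA-seq and Ribo-seq libraries (2 per group and assay) were grouped by their labels. Per the study's methods the authors used FANSe2 for mapping, against mm10, and the deposited values are unlogged RPKM of genes in single libraries. Whether RPF reads were counted over coding sequence or transcripts is not given in the sources used here. The authors tested genes with edgeR, which needs counts. Here log2(RPKM + 1) was tested with limma 3.58.1 (eBayes, trended variance; R 4.3.3) where the mean over an assay's libraries reached 1 RPKM, two-sided, with Benjamini-Hochberg adjustment. Fold changes on this scale understate those of low genes.

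TE was tested on the log2 ratio of libraries with the same group and number, with 1 added to both RPKM. Printed TE values are ratios without it. Nothing states that same-numbered RNA-seq and Ribo-seq libraries share an animal. Dnajb4 was counted over different lengths in the 2 assays, so its TE level is not described.

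Library totals and whole reads were recovered from the steps between RPKM values, taking a value as whole within 0.01 reads. The recovered reads sum to 101.6% to 107.8% of the totals in RNA-seq and 99.2% to 99.5% in Ribo-seq. Intervals and the floor of 3 reads cover counting error only. Reads served these, voom and the minimum of 100 reads. Coordinates came from GENCODE M21 (GRCm38) and sequences from RefSeq (GRCm38.p6). Python 3.11.15 and pandas 2.3.3 were used. The fitting steps were tested on simulated data.

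Genes were named if called by the thresholds of the study, if on a list of core chaperones, or if among the 5 highest in either assay. Pathway genes were named if called. Genes passing only the adjusted p were added after their values were seen. The members, compartments and lists were chosen with earlier results of these data known. Alternatives were another pseudocount (0.1), filter (none, or a mean of 5), scaling (common sum or median), no variance trend, a replicate block, an adjusted p, voom, an interaction model, and leaving out each library. A crossed block was chosen after seeing the data.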

Additional observations from a re-analysis of the deposited data

How the results depend on the processing

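With a pseudocount of 0.1 the median log2 fold change of mitochondrial members was 0.39 in mRNA and -1.26 in TE, and 0 members were called lower in TE (6.57% of all genes). In RPF the calls of Hspa14 and Dnajc19 ended and Dnaja3 was called. With no filter on low values 0 members were called higher and 0 lower in mRNA (0.459% and 1.12% of all genes) and 3 lower in TE (3.86%), and the cytosolic RPF median was -0.24. With a mean RPKM of at least 5, 0 members were called lower in mRNA (7.63% of all genes), and the mitochondrial medians were 0.40 in mRNA and -0.37 in RPF. At a common sum the mitochondrial mRNA median was 0.33, the ER, cytosolic and mitochondrial medians were -0.86, -0.99 and -1.34 in RPF and -1.51, -1.005 and -1.86 in TE, 0 members were called higher and 12 lower in RPF (0.366% and 23.8% of all genes), and 10 lower in TE (14.1%). At a common median the mRNA medians were 0.45, 0.45 and 0.64 and the RPF medians 0.22, 0.18 and -0.20, with 4 members called higher and 0 lower in mRNA (5.05% and 2.72% of all genes). Over all genes the mRNA calls then changed from 246 higher and 701 lower to 540 higher and 291 lower, and the RPF calls from 177 and 879 to 349 and 421. Without a variance trend 3 members were called lower in TE (4.72% of all genes), and with the interaction model 2 (4.39%). With voom on recovered reads the mitochondrial medians were 0.39 in mRNA and -0.25 in RPF, and 4 members were called higher and 5 lower in RPF (3.88% and 6.15% of all genes). With an adjusted p under 0.05 in place of the unadjusted one, 6 members were called higher and 2 lower in mRNA (5.01% and 12.7% of all genes), 0 and 0 in RPF, and 0 lower in TE (0% of all genes in each).

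The replicate number as a block gave 6 members higher and 2 lower in mRNA, 1 higher in RPF and 2 lower in TE, beside 4.66% and 11.5%, 1.89% and 4.99% of all genes, and 498 and 1229 genes higher and lower in mRNA. Nothing states that the numbers pair libraries, and, over 2 pairs, the correlation across genes between deviations of same-numbered M and B libraries was -0.104 in mRNA and -0.0138 in RPF. A crossed pairing, chosen after seeing the data, called 6 members higher and 2 lower in mRNA, and 474 and 1303 of all genes.

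With 1 library left out the calls in mRNA ranged from 0 to 7 higher and 0 to 2 lower (1.55% to 4.7% and 5.14% to 9.81% of all genes), those in RPF from 0 to 2 higher and 0 to 7 lower (0.509% to 4.68% and 6.45% to 23.3%), and those in TE from 0 to 9 lower (1.3% to 13.4%). The cytosolic and mitochondrial mRNA medians ranged from -0.0088 to 0.29 and from 0.28 to 0.39, the RPF medians from -0.096 to -0.036 and from -0.71 to -0.43. The ER, cytosolic and mitochondrial TE medians ranged from -1.22 to -0.41, from -0.40 to -0.15 and from -1.12 to -0.88.

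Signs of single genes turned as follows, and no turned value had passed an adjusted p. At a common median the mRNA log2 fold changes were positive for Dnajb11 (0.27), Hspa8 (0.021), Hsph1 (0.012) and Hspb8 (0.15), and the RPF values for Dnajb9 (0.080), Hspa13 (0.24), Hspa4 (0.23), Hsp90aa1 (0.15), Dnaja1 (0.20), Hspb8 (0.32), Hspa9 (0.083) and Hspd1 (0.14). At a common sum the RPF values were negative for Hspa5 (-0.62), Hsp90b1 (-0.81), Dnajb11 (-0.66), Dnajc3 (-0.85), Hspa8 (-0.86), Hspa1b (-0.37), Hsp90ab1 (-0.64), Dnaja2 (-0.32) and Hspe1 (-0.067), and the TE values for Hspa5 (-0.75), Dnajb11 (-0.61), Hspa8 (-0.56), Dnaja2 (-0.36), Hspb1 (-0.59), Hspb8 (-0.70) and Dnajc24 (-0.29). With voom the RPF values were positive for Hspa13 (0.24), Dnajb1 (0.038) and Hspb8 (0.083). With 1 library left out the mRNA values spanned 0 for Hspa5 (-0.33 to 0.67), Hsp90b1 (-0.090 to 0.38), Hspb8 (-0.31 to 0.059), Dnajb11 (-0.21 to 0.20), Dnajc10 (-0.057 to 0.39), Hsp90aa1 (-0.13 to 0.78), Dnaja2 (-0.19 to 0.36), Hsph1 (-0.55 to 0.026) and Dnajc19 (-0.022 to 0.38). The RPF values spanned 0 for Hspa13 (-0.90 to 0.72), Hsph1 (-1.02 to 0.23), Hsp90aa1 (-0.53 to 0.18), Dnajb1 (-1.52 to 0.58), Hspa5 (-0.031 to 0.52), Hsp90b1 (-0.28 to 0.40), Dnajc3 (-0.22 to 0.24), Hspa1b (-0.28 to 1.17), Hspb8 (-0.45 to 0.44), Dnajb11 (-0.21 to 0.56), Hspa4 (-0.45 to 0.27), Hspa9 (-0.50 to 0.012) and Hspa8 (-0.094 to 0.12). The TE values spanned 0 for Hsp90b1 (-0.66 to 0.49), Hspa1b (-2.48 to 0.014), Hsph1 (-0.92 to 0.66), Dnaja2 (-0.13 to 1.02), Dnajc12 (-0.15 to 2.12), Hspb8 (-0.19 to 0.43), Hspa5 (-0.54 to 0.69), Dnajb11 (-0.13 to 0.49), Hspb1 (-0.38 to 0.81), Hspa4 (-1.12 to 0.16), Hsp90aa1 (-1.12 to 0.11), Dnajb1 (-1.97 to 0.029) and Hspe1 (-0.35 to 0.14). The cause of these shifts was not tested. Depth limits RPF and TE, where B2 held 959 reads of all members.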
